A study of Mus musculus with 9 samples.

Results

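The genes described here belong to the guidance families: 16 semaphorins, 8 plexins, 2 netrins, 4 Unc5 receptors, 3 Slits, 4 Robo receptors, 8 ephrins and 10 Eph receptors. They were picked by symbol, as 55 of the 25108 rows of an expression table of the mouse retina, and all 55 symbols were found. Some genes of these families, such as Sema4g, Ntn3, Epha8 and Epha10, are not among the 55 members. They are counted with the other pathway genes below. RNA sequencing had been done on retinas of C57BL/6 mice at postnatal day 17, in 3 groups of 3 libraries. OIR KO retinas came from IL-19 knockout mice with oxygen-induced retinopathy (OIR), OIR WT retinas from wild-type mice with OIR, and RA WT retinas from wild-type mice kept in room air. In OIR, newborn pups breathe high oxygen, which prunes the growing retinal vessels, and on return to room air the poorly perfused retina grows new vessels and abnormal tufts. No knockout retina from room air was analysed here, so knockout and OIR are present together in OIR KO. Nothing in the labels says whether the libraries of a group came from separate animals, or how many retinas each holds, so the p-values measure the spread between these libraries, which may be partly technical.

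Guidance proteins steer growing axons and growing vessels by attracting or repelling their tips. Semaphorins signal through plexins, often with a neuropilin as co-receptor, netrins through DCC and Unc5 receptors, Slits through Robo receptors, and the membrane-bound ephrins through Eph receptor kinases on the neighbouring cell. In the retina the neuronal members sort ganglion cell axons and the layers of the inner retina, and a smaller endothelial set, among them Plxnd1, Unc5b, Robo4, Ephb4 and ephrin-B2, acts in the tip cells and walls of vessels.

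Il19, the targeted gene, was listed at 0 FPKM in all 3 OIR KO libraries and all 3 OIR WT libraries, and at 0.0406, 0 and 0 FPKM in RA WT libraries 1 to 3. It was too low in wild-type retina to check the knockout label. FPKM counts fragments per kilobase of transcript, scaled to library size, a level per length, so genes can be compared with each other. Pairs of libraries within a group correlated at 0.974 to 0.985 on the log2 scale over the genes tested. Rod photoreceptor markers, which define the retina, were abundant and summed to 9670 to 13340 FPKM in OIR KO, 9756 to 11540 FPKM in OIR WT and 11130 to 12000 FPKM in RA WT. Y-linked transcripts were listed at 0 in OIR KO library 1 and RA WT library 2 and were present in the other libraries, so the libraries may differ in the sex of the animals. Their sum was 32.9 FPKM in RA WT library 3 and 48.05 to 64.42 FPKM in the remaining libraries above 0.

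Among the tested members the 3 largest rises in OIR were in Plxnd1, Efna1 and Epha2, which are known from vessels. The largest fall was in Ephb1, a receptor of ganglion cell axons. In OIR WT against RA WT, 7 genes rose (Plxnd1, Efna1, Epha2, Unc5b, Sema3b, Sema5b and Plxna2) and 6 fell (Ephb1, Sema3c, Sema6b, Epha4, Efna5 and Ephb6). These are 13 of the 52 members that passed the filter on low values, at least 0.5 FPKM in at least 3 libraries, and a gene was called at an adjusted p below 0.05 in limma over all 15678 genes tested. Of all genes tested, 16.0% were called in this comparison, 8.04% up and 7.92% down, while 25% of the tested members were. The members were chosen with earlier results of these data known, so shares of members called are descriptions only. In OIR KO against RA WT, 6 members rose (the same list without Plxna2) and 4 fell (Ephb1, Epha4, Efna5 and Epha3), which makes 10 of 52 (19.2%) beside 10.4% of all genes (4.75% up and 5.69% down). Both comparisons use the same RA WT libraries, and 9 members were called in both. Robo4, Ephb4 and Efnb2, also known from vessels, were called in neither. Their log2 changes were 0.79, 0.21 and -0.29 in OIR WT and 0.85, 0.68 and -0.30 in OIR KO. Sema5b, known from inner retinal neurons, was among those that rose in both. In OIR KO against OIR WT 0 of 52 members were called, beside 0.134% of all genes (0.0574% up and 0.0765% down), and 5 members had an unadjusted p below 0.05.

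The median member moved little. The median log2 change over the 52 members was -0.10 in OIR WT against RA WT, where it was 0.02 over all genes tested, and -0.05 in OIR KO against RA WT, where it was 0.02 over all genes. Log2 changes are on the scale log2(FPKM + 0.5), which understates changes of low genes. The groups did not overlap for 27 of 52 members in OIR WT against RA WT (35.0% of all genes) and for 26 of 52 in OIR KO against RA WT (32.7% of all genes). Under quantile normalization the split of calls in OIR WT against RA WT was 7 up and 9 down, with Plxna1 (adjusted p = 0.0401, limma), Sema3g (0.0384) and Sema4a (0.0438) added to those that fell. Plxna1 was also called under upper-quartile scaling (0.0438). With 3 libraries a group the counts rest on single libraries. The count in OIR WT against RA WT was 7 without OIR WT library 1, 7 without OIR WT library 3, 7 without RA WT library 2 and 8 without RA WT library 3. The count in OIR KO against RA WT was 3 without OIR KO library 1, 3 without OIR KO library 2, 3 without RA WT library 2, 5 without RA WT library 1, 5 without RA WT library 3 and 6 without OIR WT library 1. Calls kept under each of the 18 alternatives tried were 6 in OIR WT against RA WT (Plxnd1, Efna1, Unc5b, Sema3b, Sema5b and Ephb1) and 3 in OIR KO against RA WT (Plxnd1, Efna1 and Sema5b).

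**Figure D1:**
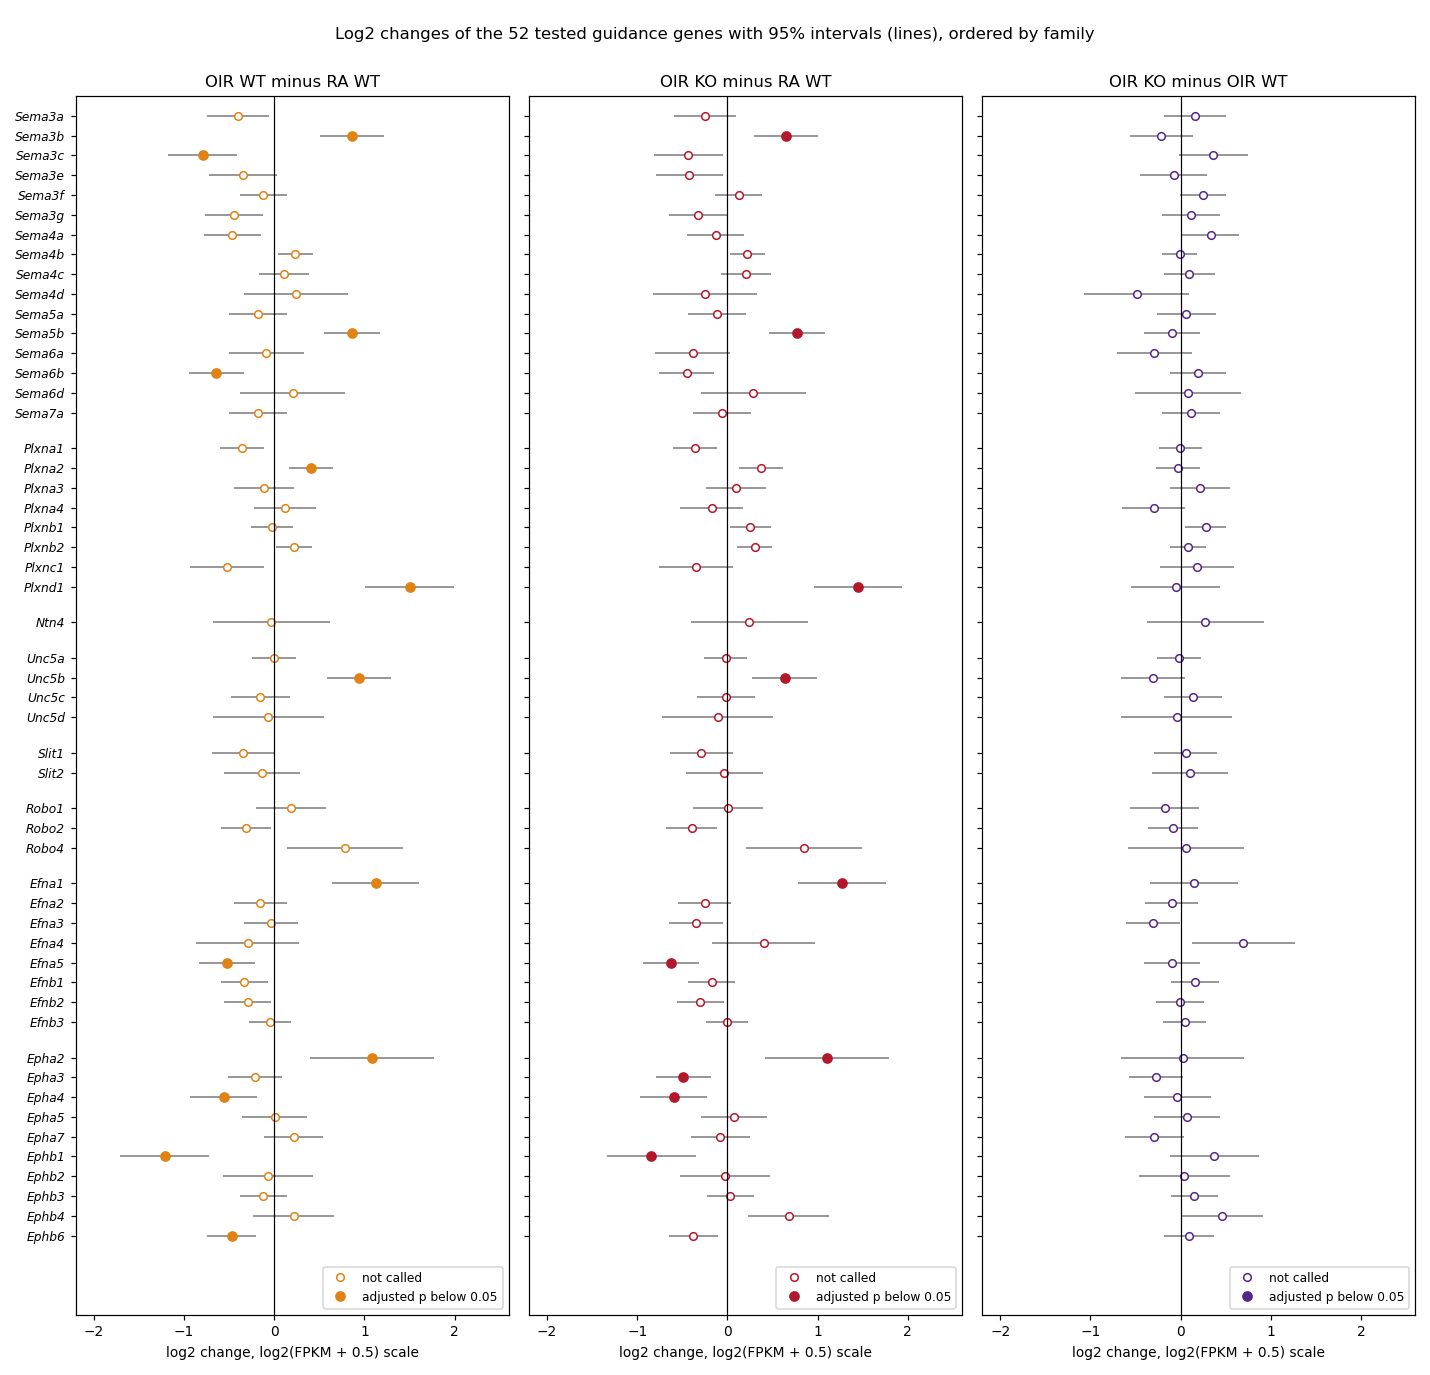
Log2 change of each of the 52 tested guidance genes in OIR WT minus RA WT, OIR KO minus RA WT and OIR KO minus OIR WT. The horizontal axis is the change on the log2(FPKM + 0.5) scale, lines are 95% intervals, filled points have an adjusted p below 0.05 and genes are ordered by family. Plxnd1, Efna1 and Epha2 stand farthest to the right in both comparisons with RA WT, Ephb1 farthest to the left, and the third panel has no filled point.

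Promoters are shown for the members called in OIR WT against RA WT, in full where the window touches no annotated exon and otherwise as 30 bases around an ACGTG match, with the core letters of the hypoxia response element marked, since the retina in OIR is poorly oxygenated. The 250 bases before the RefSeq gene start (GRCm38.p6) were searched on both strands for ACGTG, and, after the sequences had been read, also for GCGTG. A match of either can overlap another on the opposite strand, and CACGTG matches on both strands. Capitals mark every match in the bases printed, and each line reads 5′ to 3′ on the strand of the gene. Of the genes that rose, Plxnd1, Unc5b and Epha2 are on the first lines. The windows of Sema5b, Efna1 and Plxna2, which also rose, touch an exon and hold no ACGTG, so they are not shown. Sema5b and Plxna2 each hold 1 GCGTG.
Plxnd1, minus strand, chr6:115995006-115995255: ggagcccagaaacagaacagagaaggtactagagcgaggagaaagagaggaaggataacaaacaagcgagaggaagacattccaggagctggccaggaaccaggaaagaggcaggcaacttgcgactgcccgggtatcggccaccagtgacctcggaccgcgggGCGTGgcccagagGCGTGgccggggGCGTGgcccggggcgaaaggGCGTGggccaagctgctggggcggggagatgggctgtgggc
Unc5b, minus strand, chr10:60831582-60831831: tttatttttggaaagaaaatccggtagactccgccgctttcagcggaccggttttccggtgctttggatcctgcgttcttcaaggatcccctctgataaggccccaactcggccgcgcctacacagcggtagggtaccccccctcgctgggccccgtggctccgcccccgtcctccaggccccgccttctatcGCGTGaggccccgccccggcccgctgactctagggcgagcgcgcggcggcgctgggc
Epha2, plus strand, chr4:141300971-141301220: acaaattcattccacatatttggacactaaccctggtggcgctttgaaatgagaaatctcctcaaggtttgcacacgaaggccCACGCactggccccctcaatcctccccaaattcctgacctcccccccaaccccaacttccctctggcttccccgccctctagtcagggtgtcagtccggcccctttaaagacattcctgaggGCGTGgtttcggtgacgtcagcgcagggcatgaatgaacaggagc
Ephb1, minus strand, chr9:102354694-102354943: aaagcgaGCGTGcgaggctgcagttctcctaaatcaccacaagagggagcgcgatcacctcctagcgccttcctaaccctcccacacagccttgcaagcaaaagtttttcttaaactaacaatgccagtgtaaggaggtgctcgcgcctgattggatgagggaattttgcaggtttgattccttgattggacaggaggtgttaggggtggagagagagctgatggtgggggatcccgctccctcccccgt
Epha4, minus strand, chr1:77515089-77515338: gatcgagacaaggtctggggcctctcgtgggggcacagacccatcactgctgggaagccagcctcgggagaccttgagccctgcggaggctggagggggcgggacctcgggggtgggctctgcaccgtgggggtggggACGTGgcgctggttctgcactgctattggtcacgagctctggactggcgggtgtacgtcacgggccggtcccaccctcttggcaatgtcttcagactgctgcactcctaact
Sema6b, minus strand, chr17:56140344-56140593: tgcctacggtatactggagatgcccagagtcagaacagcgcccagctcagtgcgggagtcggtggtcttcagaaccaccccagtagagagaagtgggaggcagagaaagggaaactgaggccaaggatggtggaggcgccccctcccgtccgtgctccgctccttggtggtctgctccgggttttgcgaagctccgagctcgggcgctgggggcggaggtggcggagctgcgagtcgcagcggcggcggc
Efna5, minus strand, chr17:62881318-62881567: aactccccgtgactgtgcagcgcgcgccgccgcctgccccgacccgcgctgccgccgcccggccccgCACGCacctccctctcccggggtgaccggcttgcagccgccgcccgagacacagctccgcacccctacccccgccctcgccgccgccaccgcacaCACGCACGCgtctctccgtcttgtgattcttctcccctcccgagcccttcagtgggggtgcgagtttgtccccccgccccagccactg
Sema3c, plus strand, 30 bases around its match, chr5:17574759-17574788: cggggttgagcgACGTGgagaagggctccg
Ephb6, plus strand, 30 bases around its match, chr6:41605262-41605291: ggtcctcctgccCACGTcccctccgcccgc

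The letters ACGTG stood in 8 of the 46 guidance promoters found in the RefSeq table (17.4%) and in 16.6% of all 27025 promoters in the table. They stood in 0 of the 6 promoters of genes that rose in OIR WT (Sema3b has no entry) and in 3 of the 6 of genes that fell: Epha4, Sema3c and Ephb6. GCGTG stood in 19 of the 46 guidance promoters (41.3%) and in 28.2% of all promoters, in 5 of the 6 of genes that rose and in 4 of the 6 of genes that fell. Plxnd1 had 4 copies, all on the gene's strand and close together. These letters are descriptions of a window and not binding sites, and no test compared the genes that rose with those that fell.

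Levels differed widely between members of a family. The family sums and shares given here count the 55 members only. They leave out Sema4g, at means of 26.0 FPKM in OIR KO, 24.0 FPKM in OIR WT and 21.6 FPKM in RA WT. Sema3f, a secreted semaphorin that signals through neuropilin 2, made up 49.7% of the summed semaphorin FPKM in OIR KO, 45.6% in OIR WT and 47.5% in RA WT. Among the Slits, Slit2 held 83%, 81.9% and 80.3% of the family sum in OIR KO, OIR WT and RA WT, and among the netrins Ntn4 held 96.5%, 96.2% and 95.3%. Unc5a led its family with 57.8% in OIR KO, 55.9% in OIR WT and 62.4% in RA WT. The share of Unc5b in that family was 21.4% in OIR KO and 25.3% in OIR WT, against 13.9% in RA WT. The Robo family was led by Robo2, with 55.7% in OIR KO and 56.9% in OIR WT, against 69.9% in RA WT. Its second member was Robo4 in both OIR groups and Robo1 in RA WT. Ephrins and Eph receptors were spread more evenly, and the leading ephrin, Efnb3, held 25.1%, 24.9% and 24.6%. The summed level of all 55 members was 399 to 418 FPKM in OIR KO, 374 to 409 FPKM in OIR WT and 379 to 407 FPKM in RA WT, so the groups overlapped in the total while single members moved. Ntn1, Slit3 and Robo3 did not pass the filter and were not tested: Ntn1 ranged from 0.108 to 0.365 FPKM over the 9 libraries, Slit3 from 0.0769 to 0.502 FPKM and Robo3 from 0.186 to 0.510 FPKM.

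**Figure D2:**
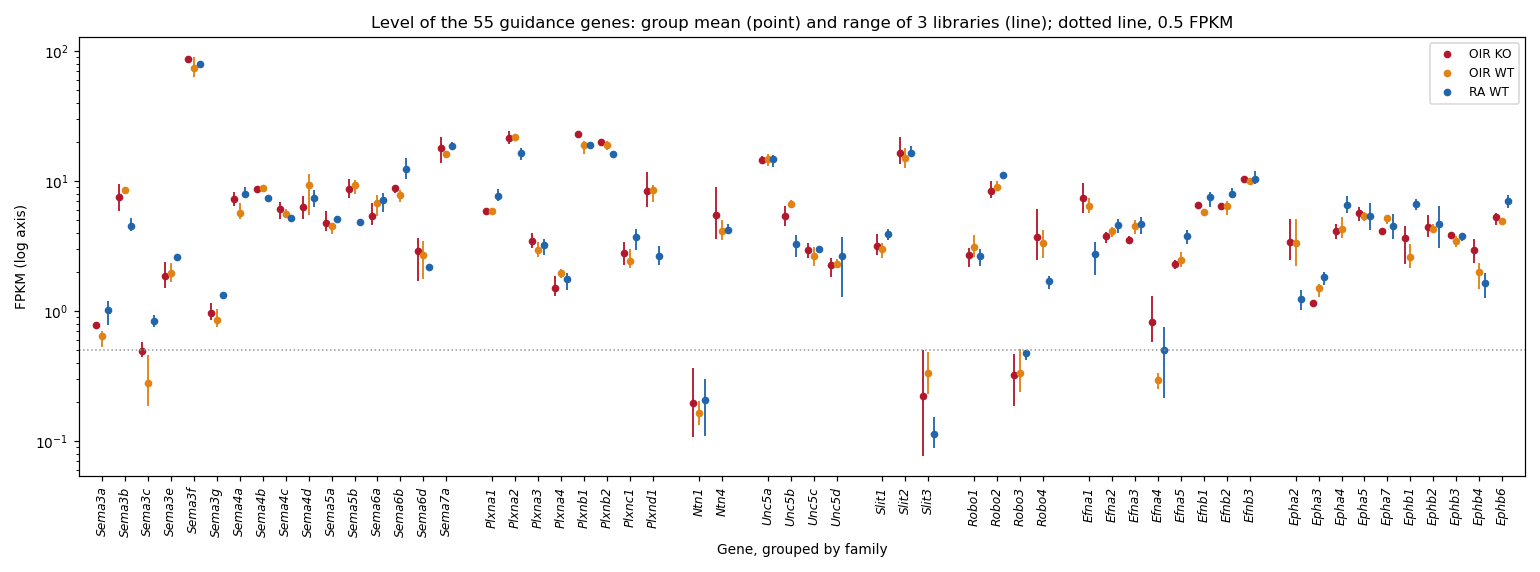
Level of all 55 guidance genes in FPKM on a log axis, grouped by family. Points are group means in OIR KO, OIR WT and RA WT, lines are the range of the 3 libraries and the dotted line is 0.5 FPKM; Sema3f stands above all other members, at means of 87.7 FPKM in OIR KO, 74.6 FPKM in OIR WT and 80.3 FPKM in RA WT.

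Markers of several cell types moved with the groups. In bulk retina, fewer cells of a type and less RNA per cell cannot be told apart. The marker lists were chosen with earlier results of these data known, so counts of markers called are descriptions only. Of all genes tested, 4.75% rose and 5.69% fell in OIR KO against RA WT. In OIR WT against RA WT, 8.04% rose and 7.92% fell. The 14 endothelial markers summed to 155.5 to 214.9 FPKM in OIR KO and 126.3 to 168.8 FPKM in OIR WT, against 92.66 to 125.3 FPKM in RA WT. In OIR KO 8 of 14 rose, and 6 rose and 1 fell in OIR WT. The 10 tip cell markers summed to 56.97 to 147.6 FPKM in OIR KO and 107.2 to 157.4 FPKM in OIR WT, against 11.71 to 14.86 FPKM in RA WT. Of these, 9 of 10 rose in OIR KO and 10 of 10 in OIR WT. Mean sums in OIR KO and OIR WT were thus 1.63 and 1.34 times the RA WT mean for endothelial markers and 6.93 and 9.47 times for tip cell markers. Pericyte and smooth muscle markers, 10 in number, summed to 83.95 to 142.4 FPKM in OIR KO and 104.7 to 155.9 FPKM in OIR WT, against 44.42 to 58.46 FPKM in RA WT. All 3 vessel sums were thus higher in every OIR library than in any RA WT library. The 14 ganglion cell markers went the other way, at 260.9 to 405.4 FPKM in OIR KO and 382.9 to 452 FPKM in OIR WT, against 647.1 to 790.3 FPKM in RA WT. Of these, 12 of 14 fell in OIR KO and 11 of 14 in OIR WT. The 10 amacrine cell markers summed to 248.1 to 367.4 FPKM in OIR KO and 325.2 to 365.4 FPKM in OIR WT, against 534.5 to 652.5 FPKM in RA WT. Of these, 6 of 10 fell in OIR KO and 5 of 10 in OIR WT. Both of these sums were lower in every OIR library than in any of RA WT. Cone markers (8) summed to 452.8 to 592.5 FPKM in OIR KO, 464.5 to 612.5 in OIR WT and 619.7 to 634.7 in RA WT. Bipolar markers (10) summed to 564.4 to 706.8 FPKM in OIR KO, 515.7 to 581.8 in OIR WT and 657.8 to 759.6 in RA WT. Cone sums were thus lower in every OIR library, and bipolar sums in every OIR WT library. Of the cone markers, 0 fell in OIR KO and 1 in OIR WT. Of the bipolar markers, 1 fell in OIR KO and 4 in OIR WT. The Müller glia markers summed to 1923 to 2076 FPKM in OIR KO and 1386 to 1782 FPKM in OIR WT, against 2187 to 2793 FPKM in RA WT. Microglial markers summed to 43.14 to 56.75 FPKM in OIR KO and 48.02 to 64.48 FPKM in OIR WT, against 17.52 to 22.36 FPKM in RA WT. Erythrocyte markers, 5 in number, summed to 111.7 to 1070 FPKM in OIR KO and 511.7 to 1431 FPKM in OIR WT, against 82.51 to 157.8 FPKM in RA WT. Of these, 5 of 5 rose in OIR WT and 0 of 5 in OIR KO. Horizontal cell markers, of which 5 were found, summed to 40.88 to 52.53 FPKM in OIR KO and 44.27 to 51.3 FPKM in OIR WT, against 61.09 to 69.6 FPKM in RA WT. Erythrocyte sums thus overlapped between OIR KO and RA WT, and horizontal cell sums were lower in every OIR library. No marker of these lists was at 0 in all libraries. The part that these changes in markers have in the guidance results was not tested.

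**Figure D3:**
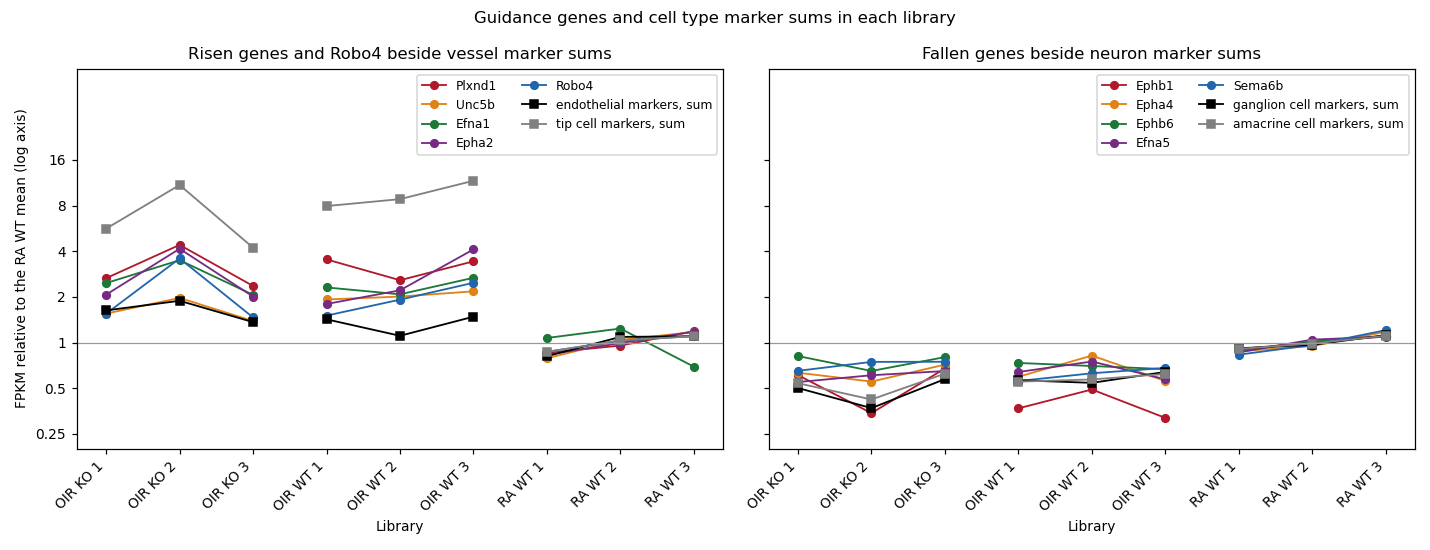
Level of guidance genes and of summed cell type markers in each library, relative to the RA WT mean, on a log axis. The left panel shows Plxnd1, Unc5b, Efna1, Epha2 and Robo4 with endothelial and tip cell marker sums; the right panel shows Ephb1, Epha4, Ephb6, Efna5 and Sema6b with ganglion and amacrine cell marker sums. Lines join libraries of a group only; OIR KO library 2 has the highest tip cell sum of its group and the lowest ganglion cell sum.

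Among the secreted class 3 semaphorins, Sema3b rose and Sema3c fell in OIR WT. Sema3b, a ligand of neuropilin receptors, was at 7.05, 9.50 and 5.95 FPKM in OIR KO libraries 1 to 3 and at 8.64, 9.05 and 8.18 FPKM in OIR WT, against 4.13, 4.28 and 5.2 FPKM in RA WT. All 6 OIR libraries lay above all 3 of RA WT. The log2 change was 0.86 (SE 0.16, adjusted p = 0.00774, limma) in OIR WT against RA WT and 0.65 (SE 0.16, adjusted p = 0.0305, limma) in OIR KO against RA WT. The second call was lost without OIR KO library 1 or 2 or RA WT library 1 or 2, with adjusted p of 0.0746 to 0.0818 in limma. It was also lost in a fit of those 6 libraries alone (0.066). Sema3c, a ligand of Plxnd1 with a neuropilin, was the lowest of the called members, at 0.583, 0.447 and 0.446 FPKM in OIR KO and 0.197, 0.456 and 0.187 FPKM in OIR WT, against 0.757, 0.931 and 0.829 FPKM in RA WT. It was lower in every OIR library than in any of RA WT, and lowest in OIR WT libraries 1 and 3. Its log2 change was -0.79 (SE 0.17, adjusted p = 0.0147, limma) in OIR WT against RA WT and -0.43 (SE 0.17, adjusted p = 0.136, limma) in OIR KO against RA WT. The call was lost without OIR WT library 1 (adjusted p = 0.0639, limma), OIR WT library 3 (0.0558) or RA WT library 2 (0.0508).

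The other class 3 members passed no test. Sema3e, the ligand that binds Plxnd1 without a neuropilin, was at 1.86 ± 0.48 FPKM in OIR KO and 1.97 ± 0.33 FPKM in OIR WT, against 2.62 ± 0.15 FPKM in RA WT (SD, n = 3 each). Its groups did not overlap with RA WT, but the log2 change of -0.34 in OIR WT had an adjusted p of 0.197 and that of -0.42 in OIR KO one of 0.137 in limma. Sema3a, a repellent that acts through neuropilin 1, averaged 0.776 FPKM in OIR KO and 0.645 FPKM in OIR WT, against 1.02 FPKM in RA WT. It had adjusted p of 0.106 for OIR WT and 0.337 for OIR KO against RA WT (limma). Sema3g, which is made by arteries, averaged 0.973 FPKM in OIR KO and 0.857 FPKM in OIR WT, against 1.34 FPKM in RA WT, and no library of either OIR group reached RA WT (adjusted p = 0.176 for OIR KO and 0.0648 for OIR WT, limma). Sema3f was at 88.1, 87.8 and 87.3 FPKM in OIR KO and 69.9, 90.1 and 63.8 FPKM in OIR WT, against 79.1, 79.7 and 82.2 FPKM in RA WT. The OIR WT libraries spread on both sides of RA WT, and the 3 OIR KO libraries lay within 1 FPKM of each other.

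Of the membrane-bound semaphorins, Sema5b rose in both OIR groups and Sema6b fell in OIR WT. Sema5b, which with Sema5a keeps the processes of inner retinal neurons within the inner retina in mice, was at 8.49, 10.4 and 7.43 FPKM in OIR KO and 10.3, 7.93 and 9.84 FPKM in OIR WT, against 4.63, 5.10 and 4.95 FPKM in RA WT. Every OIR library exceeded every RA WT library. The change in log2 was 0.86 (SE 0.14, adjusted p = 0.00467, limma) in OIR WT and 0.77 (SE 0.14, adjusted p = 0.0101, limma) in OIR KO. Its partner Sema5a averaged 4.76 ± 1.00 FPKM in OIR KO and 4.48 ± 0.46 FPKM in OIR WT, against 5.12 ± 0.29 FPKM in RA WT (SD, n = 3 each), with log2 changes of -0.11 in OIR KO and -0.18 in OIR WT that were not called. Whether the changes of Sema5a and Sema5b differ was not tested. Sema6b, a transmembrane ligand of class A plexins, was at 8.13, 9.31 and 9.33 FPKM in OIR KO and 6.97, 7.84 and 8.50 FPKM in OIR WT, against 10.4, 12.04 and 15.1 FPKM in RA WT. No OIR library reached RA WT, where library 3 was highest. The change in log2 was -0.64 (SE 0.14, adjusted p = 0.0141, limma) in OIR WT and -0.45 (SE 0.14, adjusted p = 0.0649, limma) in OIR KO. Its call was lost without OIR WT library 1 (adjusted p = 0.0624, limma).

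The remaining membrane-bound semaphorins were not called. Sema4a, needed for photoreceptor survival in mice, averaged 7.29 FPKM in OIR KO and 5.71 FPKM in OIR WT, against 8.02 FPKM in RA WT, and came closest (log2 change -0.46 in OIR WT, adjusted p = 0.0526, limma). Sema4d, the ligand of Plxnb1, was at 5.11, 7.74 and 5.98 FPKM in OIR KO and 5.54, 11.0 and 11.4 FPKM in OIR WT, against 7.45, 8.63 and 6.39 FPKM in RA WT. One OIR WT library thus lay among the lowest of the 9 and the other two were the highest. Sema4b, Sema4c and Sema6d had log2 changes of 0.11 to 0.29 in both comparisons with RA WT, and those of Sema6a (-0.09 in OIR WT and -0.38 in OIR KO) and Sema7a (-0.18 in OIR WT and -0.06 in OIR KO) were negative, none of them called.

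Plxnd1, the endothelial plexin that receives Sema3e, had the largest change of all 52 members in both comparisons with RA WT. The gene lies at chr6:115954811-115995005 on the minus strand of GRCm38. It was at 7.09, 11.8 and 6.30 FPKM in OIR KO and 9.43, 6.87 and 9.15 FPKM in OIR WT, against 2.28, 2.55 and 3.18 FPKM in RA WT. The lowest OIR library was higher than the highest of RA WT, and OIR KO library 2 was the highest of all. The log2 change was 1.50 (SE 0.22, adjusted p = 0.00349, limma) in OIR WT and 1.45 (SE 0.22, adjusted p = 0.00573, limma) in OIR KO. Its ligands Sema3c and Sema3e, given above, were lower on average in both OIR groups than in RA WT, with only Sema3c in OIR WT called.

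Plxna2, a receptor of Sema6A in the retina and the most abundant plexin after Plxnb1 in OIR KO, rose by less. It was at 19.5, 24.3 and 20.4 FPKM in OIR KO and 21.8, 21.01 and 22.6 FPKM in OIR WT, against 17.99, 14.5 and 16.7 FPKM in RA WT. Neither OIR group overlapped with RA WT. The log2 change of 0.40 in OIR WT (SE 0.11, adjusted p = 0.0327, limma) was called, and the change of 0.37 in OIR KO (SE 0.11, adjusted p = 0.0566, limma) was not. The OIR WT call was lost without any 1 of the 3 OIR WT libraries or RA WT library 2 or 3, at adjusted p of 0.0537 to 0.1 in limma. It was lost with a Y-linked covariate too (0.069), under which the OIR KO change was called (0.0407).

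The other 6 plexins were not called. Plxna1, a partner of neuropilins, averaged 5.87 ± 0.36 FPKM in OIR KO and 5.88 ± 0.20 FPKM in OIR WT, against 7.69 ± 0.92 FPKM in RA WT (SD, n = 3 each). Its log2 change of -0.36 in OIR KO and -0.35 in OIR WT lay just outside the threshold (adjusted p = 0.0626 in OIR KO and 0.0517 in OIR WT, limma). Plxnb2, a receptor of class 4 semaphorins, averaged 19.97 ± 1.16 FPKM in OIR KO and 18.9 ± 1.5 FPKM in OIR WT, against 16.1 ± 0.8 FPKM in RA WT. It also stayed just outside in OIR KO (log2 change 0.30, adjusted p = 0.0589, limma). Plxnb1 was at 23.2, 21.3 and 24.3 FPKM in OIR KO and 20.04, 20.5 and 16.2 FPKM in OIR WT, against 18.5, 19.1 and 19.9 FPKM in RA WT. Its OIR KO libraries stood above the other 6, by a log2 difference of 0.28 from OIR WT that was not called (adjusted p = 0.423, limma). Plxnc1, the receptor of Sema7a, averaged 2.81 FPKM in OIR KO and 2.42 FPKM in OIR WT, against 3.71 FPKM in RA WT (adjusted p = 0.0824 in OIR WT, limma). Plxna3 and Plxna4 had log2 changes between -0.18 and 0.12 in both comparisons with RA WT.

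Of the 2 netrins and 4 Unc5 receptors that are members, Unc5b was the called one. It is a netrin receptor of tip cells, where it also binds Robo4, and was at 5.11, 6.48 and 4.56 FPKM in OIR KO and 6.33, 6.61 and 7.16 FPKM in OIR WT, against 2.59, 3.43 and 3.86 FPKM in RA WT. All 6 OIR libraries lay above RA WT, and OIR WT lay above OIR KO libraries 1 and 3. It changed on the log2 scale by 0.94 (SE 0.16, adjusted p = 0.00585, limma) in OIR WT and 0.63 (SE 0.16, adjusted p = 0.0342, limma) in OIR KO. The OIR KO call was lost without OIR KO library 1 or 2, OIR WT library 1, or RA WT library 1 or 2, at adjusted p of 0.0532 to 0.114 in limma. It was also lost without the filter (0.0526), in a fit of those 6 libraries alone (0.0735) and with a Y-linked covariate (0.0513). The neuronal receptors Unc5a, Unc5c and Unc5d had log2 changes from -0.15 to 0.00 in both comparisons, and Unc5a, the most abundant, averaged 14.5 FPKM in OIR KO, 14.8 FPKM in OIR WT and 14.8 FPKM in RA WT. Ntn4, a netrin of basement membranes, was at 3.57, 8.97 and 3.88 FPKM in OIR KO and 3.73, 3.56 and 5.06 FPKM in OIR WT, against 3.95, 4.69 and 3.91 FPKM in RA WT. OIR KO library 2 alone stood high, the groups overlapped, and neither comparison was called (adjusted p = 0.637 in OIR KO and 0.956 in OIR WT against RA WT, limma). Ntn3, a netrin that is not a member, averaged 0.539 FPKM in OIR KO and 0.400 FPKM in OIR WT, against 0.863 FPKM in RA WT. Its log2 change of -0.59 was called in OIR WT (adjusted p = 0.0366, limma), and that of -0.39 in OIR KO was not (0.16). The Ntn3 call was not tried under the alternatives.

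No Slit or Robo gene was called. Robo4, the Robo receptor of endothelial cells, was at 2.63, 6.09 and 2.49 FPKM in OIR KO and 2.56, 3.26 and 4.21 FPKM in OIR WT, against 1.48, 1.75 and 1.88 FPKM in RA WT. No OIR library overlapped with RA WT, and OIR KO library 2 was the highest. In log2 terms the change was 0.79 (95% interval 0.14 to 1.43, adjusted p = 0.0958, limma) in OIR WT and 0.85 (95% interval 0.20 to 1.49, adjusted p = 0.091, limma) in OIR KO. Without OIR KO library 2 the OIR WT change was called (adjusted p = 0.0142, limma), as it was in a fit of the 6 wild-type libraries alone (adjusted p = 0.0243). Robo2, a neuronal receptor of Slit1 and Slit2, averaged 8.48 ± 1.43 FPKM in OIR KO and 8.98 ± 0.99 FPKM in OIR WT, against 11.2 ± 0.5 FPKM in RA WT (SD, n = 3 each). Its groups did not overlap with RA WT either, at adjusted p of 0.0727 in OIR KO and 0.126 in OIR WT (limma). Without OIR KO library 3 the OIR KO change of Robo2 was called (adjusted p = 0.0225, limma). Robo1 averaged 2.69 FPKM in OIR KO, 3.11 FPKM in OIR WT and 2.67 FPKM in RA WT. Slit2 averaged 16.6 FPKM in OIR KO, 15.1 FPKM in OIR WT and 16.6 FPKM in RA WT, and Slit1 averaged 3.16, 3.002 and 3.94 FPKM in OIR KO, OIR WT and RA WT.

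**Figure D4:**
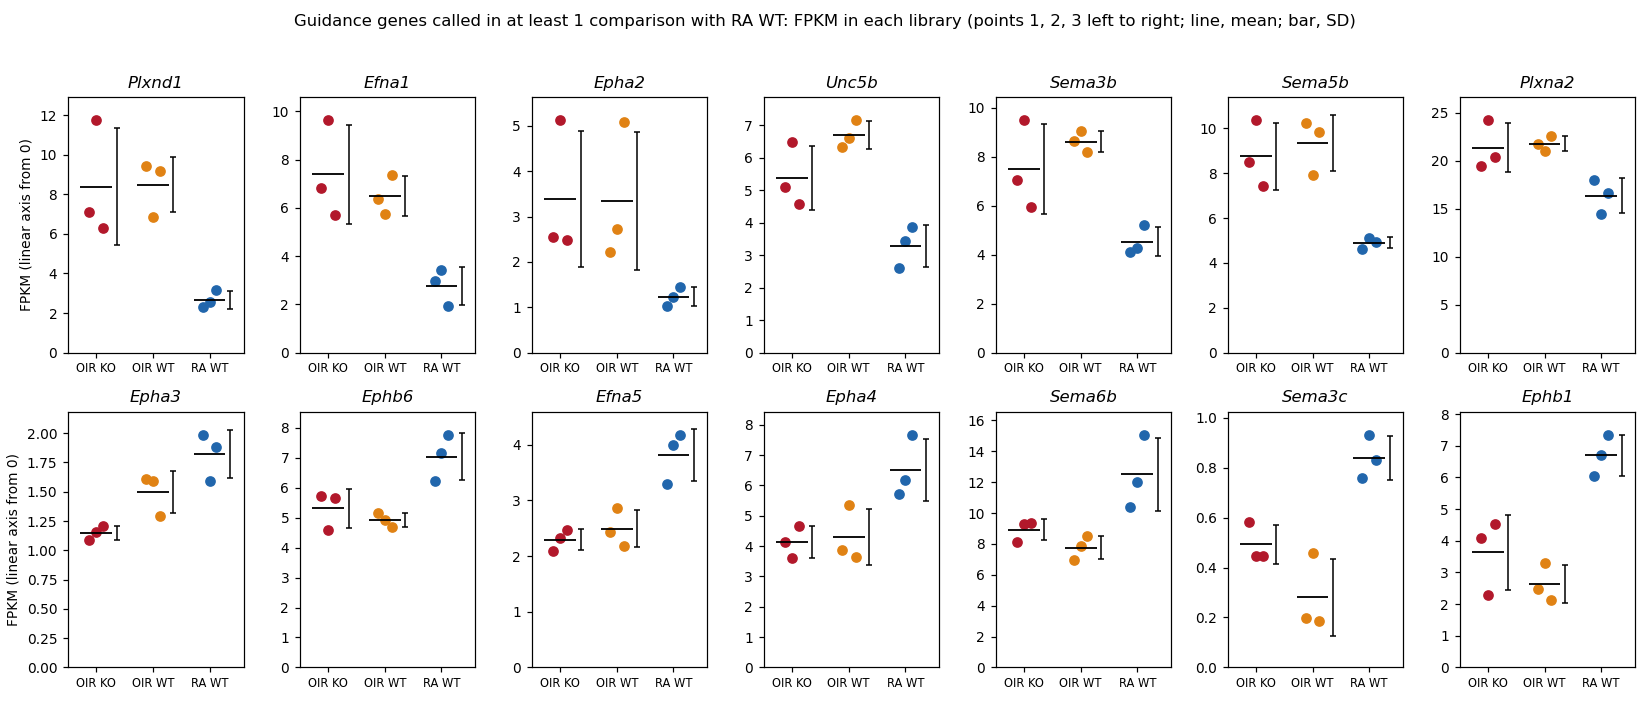
FPKM of the 14 guidance genes called in at least 1 comparison with RA WT, on linear axes from 0. Points are libraries 1 to 3 from left to right, horizontal lines are means and vertical bars are SD; the upper row holds the 7 genes that rose and the lower row the 7 that fell, with OIR KO and OIR WT on the left of RA WT in each panel.

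Among the ephrins, Efna1 rose and Efna5 fell in both OIR groups. Efna1, a membrane-anchored ligand of EphA2, was at 6.81, 9.64 and 5.70 FPKM in OIR KO and 6.37, 5.74 and 7.38 FPKM in OIR WT, against 2.96, 3.41 and 1.91 FPKM in RA WT. The OIR libraries were all above RA WT. Efna1 changed by 1.124 on the log2 scale (SE 0.22, adjusted p = 0.0094, limma) in OIR WT and 1.27 (SE 0.22, adjusted p = 0.00861, limma) in OIR KO. Efna5, which with its Eph receptors arranges the map of ganglion cell axons in visual centres, was at 2.09, 2.32 and 2.47 FPKM in OIR KO and 2.44, 2.86 and 2.18 FPKM in OIR WT, against 3.29, 3.99 and 4.18 FPKM in RA WT. No OIR library reached RA WT. In log2 terms the change was -0.53 (SE 0.14, adjusted p = 0.0306, limma) in OIR WT and -0.62 (SE 0.14, adjusted p = 0.0222, limma) in OIR KO. The OIR WT call was lost without OIR WT library 1 or 3 or RA WT library 2 or 3 (adjusted p of 0.0873 to 0.107, limma). The OIR KO call was lost without OIR KO library 1 or 2 or RA WT library 2 or 3 (0.0616 to 0.0799). With a Y-linked covariate the OIR WT call was lost (adjusted p = 0.0654, limma).

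Efna1 lies on chromosome 3 next to 2 other A ephrins, Efna3 at 32.8 kb from it and Efna4 at 10.4 kb from Efna3 (GENCODE M21, GRCm38), and these neighbours were not called. Efna3 was at 3.44, 3.40 and 3.79 FPKM in OIR KO and 4.64, 3.94 and 4.99 FPKM in OIR WT, against 3.94, 4.80 and 5.29 FPKM in RA WT. Efna4 was at 0.579, 1.31 and 0.588 FPKM in OIR KO and 0.252, 0.332 and 0.305 FPKM in OIR WT, against 0.214, 0.751 and 0.534 FPKM in RA WT. For Efna3 the OIR KO libraries were the lowest of the 9, and for Efna4 they were above OIR WT but overlapped with RA WT. Efnb2, the arterial partner of Ephb4, averaged 6.42 ± 0.14 FPKM in OIR KO and 6.49 ± 0.87 FPKM in OIR WT, against 8.03 ± 0.74 FPKM in RA WT (SD, n = 3 each). Its groups did not overlap with RA WT, at adjusted p of 0.132 in OIR KO and 0.124 in OIR WT (limma). Efnb1 averaged 6.59 FPKM in OIR KO and 5.84 FPKM in OIR WT, against 7.53 FPKM in RA WT (adjusted p = 0.0841 in OIR WT, limma). Efna2 averaged 3.81, 4.11 and 4.64 FPKM in OIR KO, OIR WT and RA WT, and Efnb3 10.3, 10.0 and 10.4 FPKM.

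Among the Eph receptors, Epha2 rose in both OIR groups. This receptor of ephrin-A1, known from vessel growth, was at 2.56, 5.13 and 2.48 FPKM in OIR KO and 2.22, 2.73 and 5.08 FPKM in OIR WT, against 1.03, 1.23 and 1.46 FPKM in RA WT. All OIR libraries were above RA WT, with 1 high library in each OIR group. The log2 change was 1.08 (SE 0.31, adjusted p = 0.0403, limma) in OIR WT and 1.11 (SE 0.31, adjusted p = 0.0493, limma) in OIR KO. The OIR WT call was lost without OIR KO library 1, OIR WT library 2 or 3 or any RA WT library (adjusted p of 0.0514 to 0.116, limma). That of OIR KO was lost without OIR KO library 1 or 2, OIR WT library 2 or any RA WT library (0.0631 to 0.137). Without the filter and with a Y-linked covariate the OIR WT call was lost too (adjusted p = 0.0641 and 0.102, limma). The OIR KO call was lost in these fits (0.0756 and 0.0695), with a pseudocount of 1 (0.0583), with a filter at 1 FPKM (0.0502) and under quantile normalization (0.0527).

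Of the 10 Eph receptors that are members, Ephb1, Epha4 and Ephb6 fell in OIR WT, and Ephb1, Epha4 and Epha3 in OIR KO. Epha8, not a member, also fell, by -0.44 in OIR WT (adjusted p = 0.0267, limma) and -0.43 in OIR KO (0.0396) in log2. Epha10, not a member either, fell in OIR WT (log2 change -0.58, adjusted p = 0.0165, limma). In OIR KO its change of -0.23 was not called (0.287). The Epha8 and Epha10 calls were not tried under the alternatives. Ephb1, the receptor that turns ganglion cell axons to the same side of the brain at the optic chiasm in mice, was at 4.08, 2.29 and 4.52 FPKM in OIR KO and 2.47, 3.28 and 2.13 FPKM in OIR WT, against 6.06, 6.69 and 7.34 FPKM in RA WT. No OIR library came near RA WT. Its log2 change was -1.22 (SE 0.22, adjusted p = 0.00745, limma) in OIR WT, the largest fall among the members, and -0.84 (SE 0.22, adjusted p = 0.0405, limma) in OIR KO. The OIR KO call was lost without OIR KO library 1 or 2, OIR WT library 1 or any RA WT library (adjusted p of 0.0595 to 0.126, limma). It was also lost without the filter (0.065), in a fit of those 6 libraries alone (0.058) and with a Y-linked covariate (0.0575). Exons of 10 members overlap a gene on the opposite strand (Sema4c, Plxna1, Plxna4, Plxnb1, Unc5a, Unc5c, Efna3, Efna4, Ephb1 and Ephb4). Whether reads were counted by strand is unknown here, so the levels of these members may include reads of the opposite gene. For Ephb4 that gene is Zan, listed at 0.942 to 3.26 FPKM over the libraries, beside 1.26 to 3.61 FPKM for Ephb4. For Unc5a it is Hk3, listed at 0.534 FPKM at most.

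Epha4, which binds ephrins of both classes, was at 4.12, 3.60 and 4.66 FPKM in OIR KO and 3.88, 5.34 and 3.64 FPKM in OIR WT, against 5.72, 6.18 and 7.67 FPKM in RA WT. Neither OIR group overlapped with RA WT, though OIR WT library 2 came close to RA WT library 1. The change in log2 was -0.56 (SE 0.17, adjusted p = 0.0462, limma) in OIR WT and -0.60 (SE 0.17, adjusted p = 0.0481, limma) in OIR KO. The OIR WT call was lost without OIR KO library 1 or 3, OIR WT library 1 or 3 or any RA WT library (adjusted p of 0.052 to 0.151, limma). The OIR KO call was lost without OIR KO library 1 or 2, OIR WT library 1 or 3 or any RA WT library (0.0537 to 0.151). Without the filter, in a fit of the 6 libraries compared and with a Y-linked covariate the OIR WT adjusted p was 0.0672, 0.0608 and 0.0921 and that of OIR KO 0.0693, 0.0525 and 0.0674 (limma). Ephb6, a receptor without kinase activity, was at 5.73, 4.57 and 5.64 FPKM in OIR KO and 5.16, 4.93 and 4.70 FPKM in OIR WT, against 6.21, 7.14 and 7.76 FPKM in RA WT. No OIR library reached RA WT. The change in log2 was -0.47 (SE 0.12, adjusted p = 0.0292, limma) in OIR WT and -0.38 (SE 0.12, adjusted p = 0.0787, limma) in OIR KO. The OIR WT call was lost without any 1 of the OIR WT libraries or RA WT library 2 or 3 (adjusted p of 0.0615 to 0.0927, limma), and with a Y-linked covariate (0.0789).

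Epha3, a receptor of ephrin-A5, was called in OIR KO against RA WT and not in OIR WT against RA WT. It was at 1.09, 1.16 and 1.21 FPKM in OIR KO and 1.61, 1.59 and 1.29 FPKM in OIR WT, against 1.99, 1.59 and 1.88 FPKM in RA WT. The OIR KO libraries were the 3 lowest, and OIR WT overlapped with RA WT. The log2 change was -0.49 (SE 0.14, adjusted p = 0.0485, limma) in OIR KO and -0.22 (adjusted p = 0.317, limma) in OIR WT, while the difference of -0.27 between OIR KO and OIR WT was not called (adjusted p = 0.553, limma). The call was lost when any 1 of the 9 libraries was left out (adjusted p of 0.0556 to 0.135, limma). The call was lost as well without the filter, with a filter at 1 FPKM, under upper-quartile scaling, in a fit of those 6 libraries alone and with a Y-linked covariate (0.0503 to 0.0855). Ephb4, the venous receptor of ephrin-B2, was at 2.86, 3.61 and 2.34 FPKM in OIR KO and 2.15, 1.49 and 2.34 FPKM in OIR WT, against 1.26, 1.70 and 1.97 FPKM in RA WT. The OIR KO libraries were above RA WT and OIR WT overlapped with it, with log2 changes of 0.68 in OIR KO (adjusted p = 0.0589, limma) and 0.21 in OIR WT (adjusted p = 0.512, limma). Epha5, Epha7, Ephb2 and Ephb3 had log2 changes between -0.12 and 0.21 in both comparisons.

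OIR KO and OIR WT retinas were compared directly for differences between the genotypes within OIR, and no member passed the test. No knockout retina from room air was analysed, so a difference in response cannot be told from one present without OIR. The largest difference was in Efna4, at 0.69 on the log2 scale (SE 0.26, 95% interval 0.12 to 1.26, adjusted p = 0.423, limma). Efna4, Plxnb1, Ephb4, Sema4a and Efna3 had an unadjusted p below 0.05, of which Efna3 was lower in OIR KO and the other 4 higher. The groups did not overlap for 7 of 52 members (Sema3a, Plxnb1, Efna3, Efna4, Efnb1, Epha3 and Epha7), beside 17.7% of all genes tested. For 50 of 52 members the 95% interval of the difference lay within 1 log2 unit of 0, and for 24 of them within 0.5, which bounds the differences and does not show that the genotypes are alike. For Plxnd1 the difference was -0.05 (95% interval -0.55 to 0.44), for Efna1 0.15 (-0.34 to 0.63), for Unc5b -0.30 (-0.66 to 0.05) and for Ephb1 0.37 (-0.12 to 0.87). The widest reach downward was that of Sema4d, whose interval went to -1.07.

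OIR KO library 2 was the highest of its group for Plxnd1, Robo4, Efna1, Epha2, Ntn4, Unc5b, Sema3b, Sema5b and Plxna2, and the lowest for Ephb1, Epha4 and Ephb6. Over the 52 members it was the highest of the 3 OIR KO libraries in 19 and the lowest in 23, and OIR WT library 2 was the highest of its group in 22 and the lowest in 18. RA WT library 1 was the highest in 9 and the lowest in 28. Such counts leave out direction, so they do not show whether OIR KO library 2 stands apart. OIR KO library 2 had the highest tip cell marker sum of OIR KO (147.6 FPKM) and the lowest ganglion cell marker sum (260.9 FPKM). Its erythrocyte markers summed to 1070 FPKM, against 111.7 and 112.9 FPKM in OIR KO libraries 1 and 3. Lens markers summed to 30.11 FPKM in it, against 1.471 and 4.139 FPKM in OIR KO libraries 1 and 3. They summed to 53.7, 6.512 and 2.12 FPKM in RA WT libraries 1 to 3 and to 0.6073 to 1.15 FPKM in OIR WT. The part of these values in the guidance levels was not tested.

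**Figure D5:**
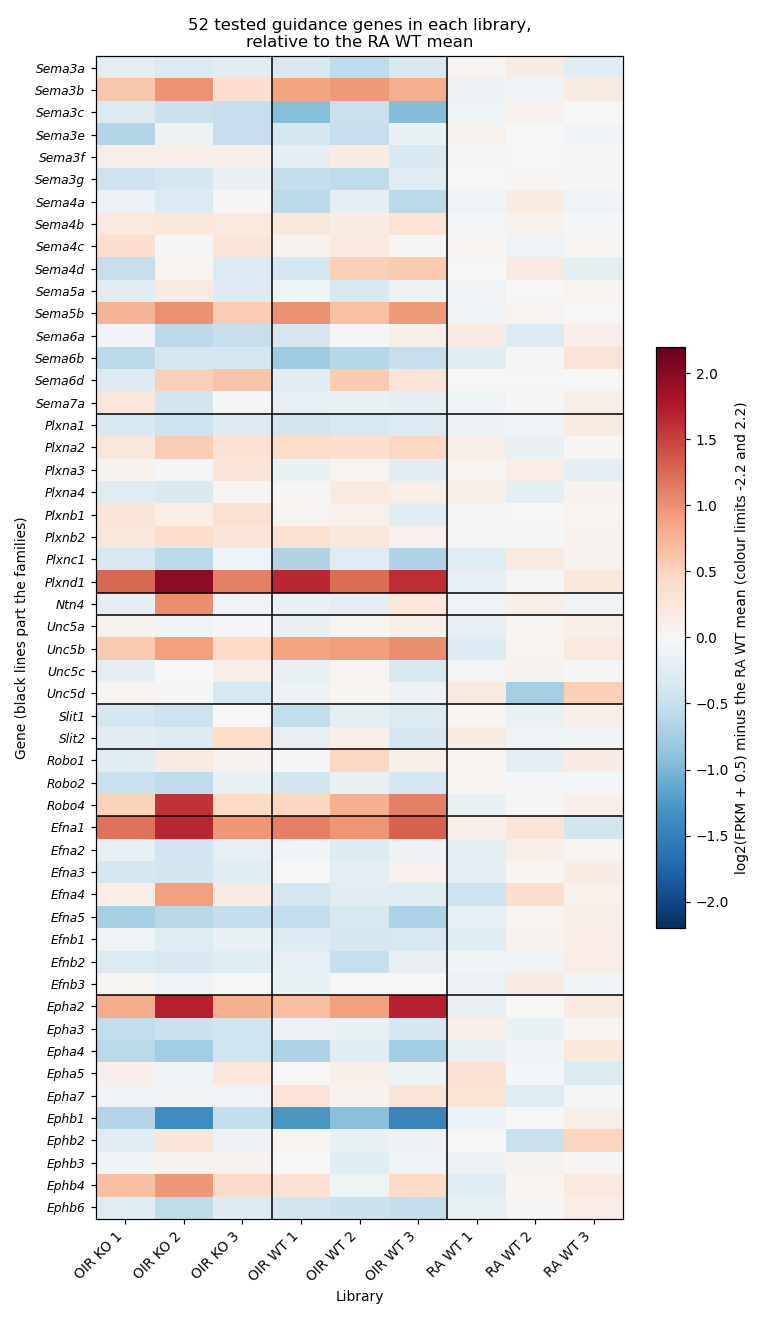
The 52 tested guidance genes in each of the 9 libraries, as log2(FPKM + 0.5) minus the RA WT mean, in colours from blue (lower) to red (higher). Rows are grouped by family with black lines between them; Plxnd1, Efna1, Epha2 and Robo4 are reddest in OIR KO library 2, and Ephb1 is the bluest row in both OIR groups.

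Of the other genes of the same pathways 59 were listed and 53 tested. In OIR WT against RA WT 4 of 53 rose and 12 fell, beside 8.04% up and 7.92% down of all genes tested, with a median log2 change of -0.14. In OIR KO against RA WT 3 rose and 7 fell, beside 4.75% up and 5.69% down of all genes, with a median of -0.15. By role, 2 rose and 3 fell of 11 co-receptors and other receptors in OIR WT, 0 rose and 2 fell of 8 other ligands, and 2 rose and 7 fell of 34 cytoplasmic partners. None of the 53 was called in OIR KO against OIR WT, where 3 had an unadjusted p below 0.05 in limma.

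Of those that rose in OIR WT, Mcam and Nrp1 are receptors of vessels. Mcam, an adhesion molecule of endothelial cells and pericytes that is also in the tip cell list, averaged 20.1 ± 8.7 FPKM in OIR KO and 22.1 ± 5.3 FPKM in OIR WT, against 3.98 ± 0.61 FPKM in RA WT (SD, n = 3 each). These are log2 changes of 2.13 in OIR KO (adjusted p = 0.0042, limma) and 2.32 in OIR WT (adjusted p = 0.00235, limma). Nrp1, the neuropilin that binds Sema3a and VEGF, averaged 3.49 ± 1.01 FPKM in OIR KO and 3.61 ± 0.43 FPKM in OIR WT, against 2.03 ± 0.22 FPKM in RA WT. Its log2 change was 0.63 in OIR KO (adjusted p = 0.0514, limma) and 0.70 in OIR WT (adjusted p = 0.0275, limma). For Nrp1 the OIR WT call was lost without any 1 of the OIR WT or RA WT libraries (adjusted p of 0.0508 to 0.0963, limma) and with a Y-linked covariate (0.0737). Its OIR KO change was called with a pseudocount of 0.1 (0.0481) and under upper-quartile scaling (0.0497). Farp1, an exchange factor that binds plexins, averaged 12.2 ± 2.6 FPKM in OIR KO and 12.1 ± 0.9 FPKM in OIR WT, against 7.65 ± 0.58 FPKM in RA WT. Its call in OIR WT (adjusted p = 0.0167, limma) was lost without OIR WT library 1 or 3 or RA WT library 3 (0.0555 to 0.0697). That in OIR KO (adjusted p = 0.0234, limma) was lost without OIR KO library 1 or 2 or RA WT library 1 or 3 (0.0548 to 0.0808) or in a fit of those 6 libraries alone (0.0512). Vav2, an exchange factor recruited by Eph receptors, averaged 4.84 FPKM in OIR KO and 4.96 FPKM in OIR WT, against 3.57 FPKM in RA WT. Its OIR WT adjusted p of 0.0389 was 0.0528 to 0.102 without OIR KO library 1 or 3, any OIR WT library or RA WT library 1 or 2 (limma). It was 0.0829 under quantile normalization, 0.0681 in a fit of those 6 libraries alone and 0.0666 with a Y-linked covariate.

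Of those that fell in OIR WT, the 5 largest falls were in Mical2, Rnd2, Flrt2, Chn1 and Ntng1. Chn1, a Rac regulator that acts downstream of EphA4 in axons, averaged 32.5 ± 1.6 FPKM in OIR KO and 29.9 ± 3.4 FPKM in OIR WT, against 50.2 ± 7.4 FPKM in RA WT. Its log2 change was -0.61 in OIR KO (adjusted p = 0.0152, limma) and -0.73 in OIR WT (adjusted p = 0.00572, limma). Its OIR KO call was lost without OIR KO library 2 (adjusted p = 0.0544, limma) or RA WT library 3 (0.0605). Flrt2, a ligand of Unc5 receptors, averaged 2.68 ± 0.25 FPKM in OIR KO and 2.203 ± 0.233 FPKM in OIR WT, against 4.19 ± 0.69 FPKM in RA WT. It had adjusted p of 0.0407 in OIR KO and 0.00794 in OIR WT (limma). For Flrt2 the OIR KO call was lost without OIR KO library 1 or 2, OIR WT library 1 or 3 or RA WT library 1 or 2 (0.0536 to 0.125). It was also lost without the filter (0.0522), in a fit of those 6 libraries alone (0.0729) and with a Y-linked covariate (0.0584). Ntng1, a membrane-anchored relative of the netrins, averaged 7.54 ± 1.70 FPKM in OIR KO and 7.02 ± 0.97 FPKM in OIR WT, against 11.6 ± 0.5 FPKM in RA WT. Its adjusted p was 0.0395 in OIR KO and 0.0186 in OIR WT (limma). It lost the OIR KO call without OIR KO library 1 or 2, OIR WT library 1 or any RA WT library (0.0599 to 0.0988) and the OIR WT call without OIR WT library 1 or 3 or RA WT library 2 or 3 (0.0535 to 0.0684). Its OIR KO call was lost without the filter (0.0622), in a fit of those 6 libraries alone (0.06) and with a Y-linked covariate (0.054), and its OIR WT call with that covariate (0.0537). Mical2, an enzyme that oxidises actin, averaged 4.26 ± 1.65 FPKM in OIR KO and 4.29 ± 0.80 FPKM in OIR WT, against 7.97 ± 1.21 FPKM in RA WT. Rnd2, a small GTPase that acts in neuronal migration, averaged 20.4 ± 3.2 FPKM in OIR KO and 16.8 ± 2.8 FPKM in OIR WT, against 29.8 ± 5.6 FPKM in RA WT. Mical2 was called in OIR KO (adjusted p = 0.0439, limma) and OIR WT (0.042), and Rnd2 in OIR WT (0.0149). These calls were lost as well. Mical2 lost that in OIR KO without OIR KO library 1 or 2, OIR WT library 1 or 3 or any RA WT library (0.0551 to 0.121). It lost that in OIR WT without OIR KO library 1, OIR WT library 1 or 3 or any RA WT library (0.0532 to 0.145). Rnd2 lost its call without OIR WT library 1 or RA WT library 2 or 3 (0.0527 to 0.0592). Mical2 lost both calls without the filter (0.0696 in OIR KO and 0.0676 in OIR WT) and with a Y-linked covariate (0.0637 in OIR KO and 0.103 in OIR WT), and the OIR KO call in a fit of those 6 libraries alone (0.0728).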

How the data were processed

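Trizol had been used to extract RNA from retina and an NEBNext Ultra kit to build the libraries, per the labels' protocols. The submitters' processing notes name HISAT2 and GRCm38. Not given in the sources used here: which program and annotation release gave the expression values, and whether it used strand. What the authors deposited is 1 table in FPKM with 25108 rows for 9 libraries, of which 0 columns were left out. FPKM gives no reads, so absolute depth is unknown. From steps in the low values the libraries' relative depths lay between 0.852 and 1.138; only 25.1 to 29.7% of those values were whole multiples of a step, to within 0.02, so no count test was run.

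Genes at 0.5 FPKM or more in at least 3 of the 9 libraries (15678) were tested with limma 3.58.1 in R 4.3.3 on log2(FPKM + 0.5), with 1 mean per group over all 9 libraries, trended and robust moderation, two-sided p-values and Benjamini-Hochberg adjustment over all genes tested; the steps were tested on simulated data. The 3 comparisons share libraries. Members called at an adjusted p below 0.05 are given with every library, other members by means, ranges or names. Among other pathway genes, the 5 per direction with the largest called changes in OIR WT against RA WT are named, of which 4 rose. Sema4g, Ntn3, Epha8 and Epha10 are named too, as genes of the same families as the members. The members and lists were chosen with earlier results of these data known. Alternatives were another pseudocount (0.1 or 1), no filter, a filter at 1 FPKM, quantile and upper-quartile scaling, a fit of the 6 libraries compared, a replicate block, a Y-linked covariate and leaving out each library. Gene positions come from GENCODE M21 and promoters from RefSeq; all 55 members matched the first and 46 the second.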

Additional observations from a re-analysis of the deposited data

How the results depend on the processing

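No member changed direction while called under any of the 18 alternatives. Over 933 gene values per comparison, for the 52 members alone, 880 kept their side of the threshold in OIR WT against RA WT, 44 lost it and 9 gained it; in OIR KO against RA WT these were 860, 67 and 6, and in OIR KO against OIR WT 933, 0 and 0. Of the 52 members tested, 13 were called in OIR WT against RA WT, 8 with the replicate block, 8 with the Y-linked covariate, and 7 to 15 when each library was left out. The block lost the calls of Efna5, Epha2, Epha4, Ephb6 and Plxna2. In OIR KO against RA WT 10 were called, 5 without the filter, 5 in a fit of those 6 libraries alone, 5 with the replicate block, 6 with the Y-linked covariate, and 3 to 11 when each library was left out. The block lost the calls of Epha2, Epha3, Epha4, Ephb1, Sema3b and Unc5b and added Sema6b. Leaving out 1 library added Sema4a, Efnb1 or Robo4 to the calls in OIR WT, and Sema6b, Robo2 or Ephb4 to those in OIR KO. Of the named pathway genes tried under the alternatives, the block lost Nrp1, Vav2 and Mical2 in OIR WT and Flrt2, Mical2 and Ntng1 in OIR KO. In OIR KO against OIR WT the count was 0 in all settings, the replicate block included. The causes were not tested, beyond the fewer libraries or residual degrees of freedom that these fits have. Same-numbered libraries correlated at -0.353 to 0.134 in their deviations from the group means. Differently numbered libraries were not compared, so these values cannot show whether the numbers stand for pairs or batches. The main fit took no pairs. Without absolute depth, the counting error of low members such as Sema3c and Efna4 cannot be given.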
